A study of Mus musculus with 27 samples.

Results

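The small leucine-rich proteoglycans (SLRPs) were examined in mouse embryonic fibroblasts (MEFs) with and without the long noncoding RNA locus *Firre*. The 10 genes taken, of 37310 in the table of RNA-seq counts, were those with the symbols *Lum*, *Dcn*, *Bgn*, *Fmod*, *Ogn*, *Aspn*, *Prelp*, *Kera*, *Omd* and *Podn*. The family was taken up because of *Lum*, whose level differs between female KO and wild-type libraries in these same data, and the question put was whether its relatives follow it. The values of *Lum* in any comparison that contains female libraries are therefore given as a description, without a test. The 12 libraries fall into 4 groups of 3, female wild-type, female *Firre* KO, male wild-type and male *Firre* KO MEFs. MEFs are primary cultures grown from embryo bodies after the head, the limbs and the viscera have been taken away, and here lines were grown from individual embryos. The KO lacks the whole *Firre* locus, which was removed in mice by recombination between loxP sites placed on either side of it, while the wild-type cultures keep the locus. The labels give no treatment for any of the 12 cultures. Sex and MEF line cannot be told apart in these samples. Neither can genotype and MEF line, since wild-type and KO cultures come from different embryos. Nothing in the labels says whether the 3 libraries of a group came from separate embryos, so that p-values may measure technical spread alone.

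SLRPs are secreted proteins of the extracellular matrix, built around a curved array of leucine-rich repeats that binds collagen. Many of them carry chondroitin, dermatan or keratan sulfate chains, set the width and spacing of collagen fibrils, and hold growth factors such as TGF-beta in the matrix. They are made by fibroblasts and by the cells of tendon, cornea, cartilage and bone, and many of their genes lie side by side in small clusters on the chromosomes.

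Most of the members lie in 3 such clusters in the mouse genome (build NCBIM37, mm9). On chromosome 10, *Dcn* (96942245 to 96980777), *Lum* (97028135 to 97035337) and *Kera* (97069817 to 97076322) lie on the plus strand with gaps of 47.4 kb and 34.5 kb. On chromosome 13, *Aspn* (49639812 to 49662926), *Omd* (49678135 to 49687978) and *Ogn* (49703440 to 49719869) lie on the plus strand with gaps of 15.2 kb and 15.5 kb. On chromosome 1, *Prelp* (135806881 to 135817991, minus strand) and *Fmod* (135933831 to 135944854, plus strand) face away from each other across 115.8 kb. No protein-coding gene is annotated between the neighbours of any of these pairs. *Bgn* lies alone on chromosome X (70728941 to 70741272, plus strand) and *Podn* on chromosome 4 (107687396 to 107704942, minus strand). *Lum* has 3 merged exon blocks that total 2075 bases, and those of the other members total between 1556 bases for *Omd* and 4212 bases for *Podn*.

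The 5 promoter windows that follow belong to the clustered genes whose RNA was lower in female than in male MEFs (*Prelp*, *Fmod*, *Aspn* and *Ogn*) and to *Kera*, the neighbour of *Lum* without reads. Each runs from 5′ to 3′ and ends at the base before the RefSeq start of the gene, and capitals mark matches to the E-box CANNTG, a motif bound by helix-loop-helix factors. In build GRCm38.p6 they lie at chr1:133921402-133921551 (minus strand, *Prelp*), chr1:134037104-134037253 (plus, *Fmod*), chr13:49544293-49544442 (plus, *Aspn*), chr13:49607865-49608014 (plus, *Ogn*) and chr10:97607055-97607204 (plus, *Kera*).
Prelp: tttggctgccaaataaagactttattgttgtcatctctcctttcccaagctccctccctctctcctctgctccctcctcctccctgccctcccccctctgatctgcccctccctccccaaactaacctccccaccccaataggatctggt
Fmod: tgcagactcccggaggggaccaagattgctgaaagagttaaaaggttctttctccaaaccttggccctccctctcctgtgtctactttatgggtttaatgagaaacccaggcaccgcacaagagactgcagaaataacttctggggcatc
Aspn: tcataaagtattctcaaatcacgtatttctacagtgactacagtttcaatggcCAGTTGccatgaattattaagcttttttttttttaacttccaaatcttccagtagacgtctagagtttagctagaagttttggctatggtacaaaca
Ogn: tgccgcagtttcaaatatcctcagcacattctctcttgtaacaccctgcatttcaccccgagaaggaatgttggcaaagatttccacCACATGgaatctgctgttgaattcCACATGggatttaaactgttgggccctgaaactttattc
Kera: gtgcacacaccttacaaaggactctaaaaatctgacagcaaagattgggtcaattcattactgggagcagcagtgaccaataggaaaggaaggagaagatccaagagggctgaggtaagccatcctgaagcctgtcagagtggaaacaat

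RefSeq gave 9 such windows of 150 bases for 8 of the 10 members, with 2 starts for *Podn*. On either strand, the E-box was found in 5 of the 9 windows, against 47.7% of 32851 promoter windows of all genes, with 2 matches before *Ogn* and 1 before *Aspn*. The CCAAT box (CCAAT) was found in 2 of 9, those of *Prelp* and *Kera*, against 24.5% of all windows. The GC box (GGGCGG) was found in 2 of 9, those of *Bgn* and 1 start of *Podn*, against 28.6%, and the SMAD motif (CAGAC), the core of sites read by the TGF-beta pathway, in 1 of 9, that of *Fmod*, against 27.7%. The TATA box (TATAAA) was in 0 of 9 and in 7.57% of all windows. These letter matches only describe the windows, and none of the 5 motifs was in all 4 windows shown for *Prelp*, *Fmod*, *Aspn* and *Ogn*.

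The libraries held 42986516 to 65454660 expected counts, the female ones fewer (42986516 to 51481034) than the male ones (51521907 to 65454660). *Firre*, listed as 6720401G13Rik, was counted 90 to 129 times in the female wild-type and 239 to 307 times in the male wild-type libraries, and was at 0 in all 6 KO libraries. Fibroblast markers were abundant in every library, the 9 genes of that list summing to between 16195 and 24072 CPM (counts scaled by TMM to a common library size). Male wild-type replicate 3 and male KO replicate 3 stood apart from the other libraries of their groups, with a chi-square per degree of freedom of 38.0 to 45.3 against those libraries, where other replicate pairs gave 7.57 to 16.5. Several results that rest on these 2 libraries are given with and without them.

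Per length, the family was dominated by *Bgn*, which encodes biglycan. Its mean level over the 12 libraries was 1902 TPM (approximate, per merged exon length and scaled to the library), 94.9% of the TPM of all 10 members. *Ogn* followed with a mean of 47.9 TPM, then *Aspn* with 19.3 TPM, *Dcn* with 16.4 TPM and *Fmod* with 8.82 TPM. *Prelp* (3.86 TPM), *Lum* (3.64 TPM), *Podn* (2.37 TPM) and *Omd* (0.979 TPM) were low. *Kera*, which encodes keratocan of the cornea, had 0 counts in all 12 libraries, where a count of 0 allows up to 3 counts in a library, and it was the 1 member that did not pass the filter on low counts. *Lum* varied most among the members that were counted, with its highest library 25.7-fold above its lowest on the CPM scale, against 2.21-fold for *Podn* and 2.23-fold for *Bgn*.

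**Figure D1:**
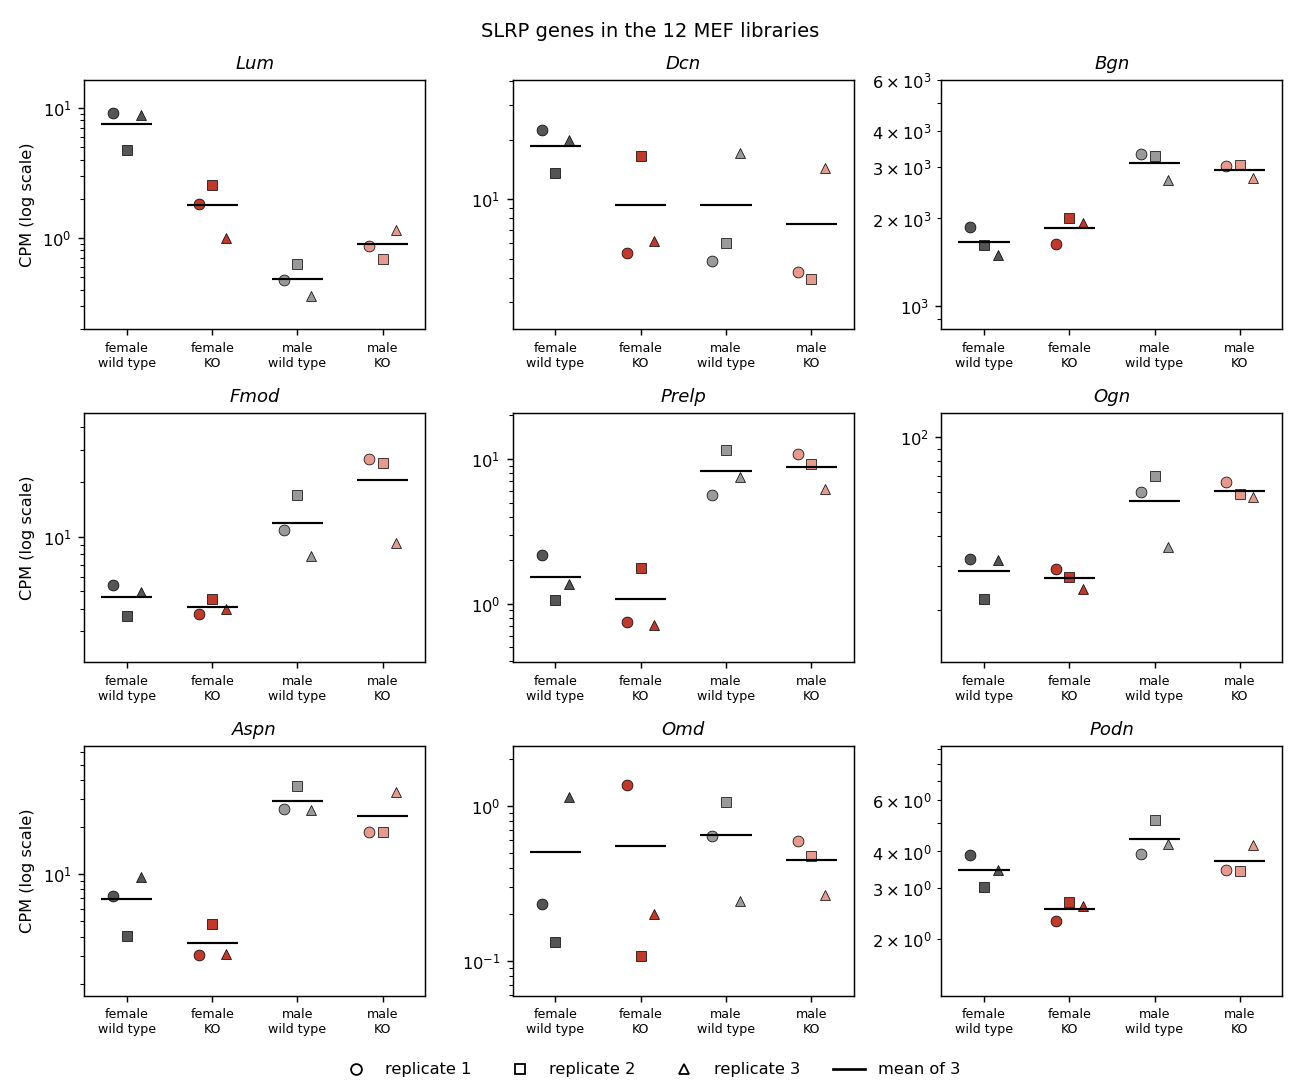
Level of the 9 counted SLRP genes (CPM, log scale, with a separate axis for each gene) in the 12 MEF libraries; symbols are replicates and bars are means of 3. *Lum* is highest in the 3 female wild-type libraries (4.75 to 9.14 CPM), while *Bgn*, *Fmod*, *Ogn*, *Aspn* and *Prelp* sit higher in the male than in the female libraries.

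*Lum* encodes lumican, a keratan sulfate proteoglycan that binds fibrillar collagen. It stood at 9.14, 4.75 and 8.80 CPM in the female wild-type libraries (391, 215 and 467 counts) and at 1.83, 2.57 and 0.995 CPM in the female KO libraries (81, 120 and 45 counts). All 3 female KO libraries lay below all 3 wild-type ones, and the log2 fold change of KO against wild type was -2.07 (SE 0.35), that is 4.19-fold lower. Because this contrast brought the family into view, it is given without a test, beside 8.2% of all 15387 tested genes whose female KO libraries all lay below the wild-type ones.

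In male MEFs *Lum* was near the lower end of what was counted and moved the other way. The male wild-type libraries held 0.472, 0.629 and 0.356 CPM (28, 39 and 19 counts) and the male KO libraries 0.863, 0.694 and 1.15 CPM (51, 45 and 60 counts). Every male KO library was above every wild-type library, as was the case for 2.78% of all tested genes. The log2 fold change was 0.87 (SE 0.40), with an unadjusted p of 0.0503 and an adjusted p of 1 in the quasi-likelihood test of edgeR, adjusted by Benjamini and Hochberg's method, so the difference did not pass, and without both libraries numbered 3 it was 0.49 (SE 0.49). The group means ran from 7.56 ± 2.44 CPM (SD, n = 3) in female wild-type through 1.801 ± 0.789 in female KO and 0.901 ± 0.228 in male KO to 0.486 ± 0.137 in male wild-type MEFs. Of the neighbours in that order, female KO and male KO overlapped, and the others did not. The KO effect in female minus that in male MEFs was -2.94 (SE 0.53) on the log2 scale, given without a test because the female libraries chose the gene. In bulk cultures, fewer cells that make lumican and less of its RNA per cell cannot be told apart.

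Epithelial markers were also lower in the female KO than in the female wild-type libraries. All 7 genes of that list were in the table, and they summed to 24.8 to 68.6 CPM in female wild-type, 20.2 to 22.1 in female KO, 5.57 to 13.5 in male wild-type and 5.91 to 14.95 in male KO libraries. In female MEFs 0 of the 6 tested genes were higher in the KO, with a median log2 fold change of -1.59, and 0 were called. The basal keratin *Krt5*, picked from the list after its values were seen, had a mean of 5.87 CPM in female wild-type and 0.538 CPM in female KO MEFs and did not pass the test, and *Krt15* was the 1 gene of the list with a library at 0. The tendon list (4 genes) summed to 35.4 to 51.9 CPM in female wild-type and 26.8 to 43.8 CPM in female KO libraries, with 0 of 4 genes called and a median of -0.33. The part of epithelial or tendon cells in the values of *Lum* was not tested.

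None of the 8 other counted members passed the test between KO and wild type in either sex, where a call needed an adjusted p under 0.01 together with a log2 fold change beyond 1 in either direction. In female and in male MEFs alike 0 of 8 were called, where 0.0065% of all genes were called (1 gene, *Firre* itself). At an unadjusted p under 0.05 the count was 2 of 8 in female MEFs, beside 7.55% of all genes, and 0 of 8 in male MEFs, beside 2.06%, and DESeq2 called 0 of 8 in each. The groups of KO and wild-type libraries did not overlap for 1 of 8 in female MEFs, beside 19.1% of all genes, and for 0 of 8 in male MEFs, beside 5.29%. The median log2 fold change of the 8 was -0.32 in female and -0.17 in male MEFs, beside -0.00 for all tested genes in each sex, with 6 of 8 lower in the female and 5 of 8 lower in the male KO. Averaged over the sexes, 0 of 8 were called (0.0065% of all genes) and 2 had an unadjusted p under 0.05, *Aspn* and *Podn*, beside 6.24% of all genes. In the difference between the sexes in the KO effect, 0 of 8 were called beside 0% of all genes, 0 of 8 had an unadjusted p under 0.05 beside 3.19%, and the lowest adjusted p was 1.

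**Figure D2:**
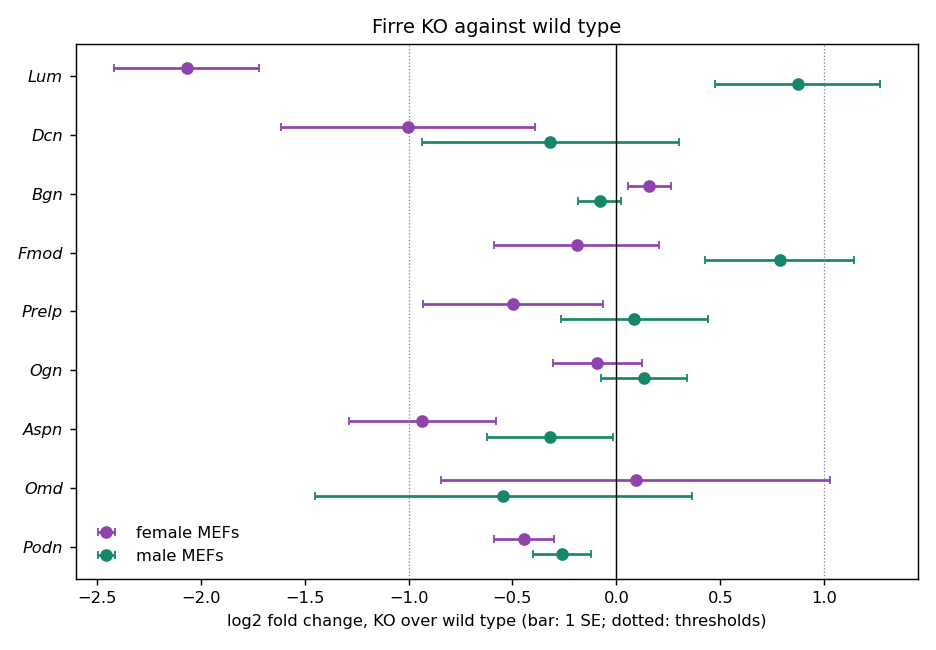
Log2 fold change of *Firre* KO over wild type for the 9 counted SLRP genes in female (purple) and male (green) MEFs, with bars of 1 SE and dotted lines at the fold-change thresholds. *Lum* is the gene with the widest separation between the sexes (-2.07 and 0.87), and the 8 others lie between -1.0 and 0.78.

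Among the class I members, *Dcn* (decorin, which wraps collagen fibrils and binds TGF-beta) is the neighbour of *Lum* on chromosome 10. It was counted at 22.5, 13.7 and 20.04 CPM in female wild-type and at 5.34, 16.5 and 6.15 CPM in female KO libraries. KO replicates 1 and 3 were below every wild-type library while KO replicate 2 was above the lowest of them, and the log2 fold change was -1.0 (SE 0.61) with an adjusted p of 0.738 in edgeR's test, -1.70 without KO replicate 2 and -0.72 without KO replicate 1. In the male libraries *Dcn* stood at 4.88, 5.99 and 17.2 CPM in wild-type and at 4.30, 3.93 and 14.4 CPM in KO MEFs. In each male group replicate 3 was well above the others, and the groups overlapped (-0.32, SE 0.62). Without male wild-type replicate 3 alone the male change was 0.46, and without both libraries numbered 3 it was -0.41 (SE 0.49).

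*Aspn* (asporin, an inhibitor of TGF-beta signalling in cartilage and ligament) held 7.25, 4.04 and 9.66 CPM in female wild-type and 3.03, 4.85 and 3.12 CPM in female KO libraries. The groups overlapped through wild-type replicate 2 and KO replicate 2. The log2 fold change was -0.93 (SE 0.35), with an unadjusted p of 0.0223 that did not survive adjustment (0.592, edgeR). In male MEFs the change was -0.32 (SE 0.30), from a mean of 29.4 ± 6.21 to 23.6 ± 8.71 CPM, and -0.76 (SE 0.31) without both libraries numbered 3, short of a call. *Bgn*, whose product biglycan is bound to collagen in skin and bone, was at 1665 ± 192 CPM in female wild-type and 1857 ± 198 CPM in female KO libraries. Its change was 0.16 (SE 0.10) in female MEFs, -0.08 (SE 0.10) in male MEFs, and the groups overlapped in each sex.

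Of the class II members, the closest relatives of *Lum*, none passed the test between KO and wild type. *Fmod* (fibromodulin, which binds type I collagen in tendon) stood at 5.40, 3.65 and 4.97 CPM in female wild-type and at 3.74, 4.52 and 4.004 CPM in female KO libraries, with a log2 fold change of -0.19 (SE 0.40). In male MEFs it held 10.9, 17.02 and 7.78 CPM in wild-type and 26.7, 25.5 and 9.24 CPM in KO libraries. KO replicates 1 and 2 were above all wild-type libraries and replicate 3 was not, and the change was 0.78 (SE 0.36) with an unadjusted p of 0.0507 and an adjusted p of 1 (edgeR). Without both libraries numbered 3 it was 0.90 (SE 0.20; adjusted p = 0.649, edgeR). *Prelp* (PRELP, which binds both collagen and the heparan sulfate of basement membranes) was at 2.17, 1.06 and 1.37 CPM in female wild-type and 0.747, 1.78 and 0.708 CPM in female KO libraries, so the groups overlapped (-0.50, SE 0.43). The female change of *Prelp* ran from -1.07 to -0.17 with single libraries left out. The male change of *Prelp* was 0.09 (SE 0.35). *Omd* (osteomodulin, made by bone-forming cells) was counted 5 to 66 times in a library. It was highest in female KO replicate 1 (1.36 CPM) and female wild-type replicate 3 (1.15 CPM), its other female libraries held 0.107 to 0.234 CPM, and its change of 0.09 (SE 0.94) became -1.74 without that KO library.

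In the remaining members the differences were small. *Ogn* (osteoglycin or mimecan, of class III) was at 28.7 ± 5.72 CPM in female wild-type and 26.9 ± 2.46 CPM in female KO libraries, and its log2 fold change was -0.09 (SE 0.21) in female MEFs, against 0.13 (SE 0.21) in male MEFs. *Podn* (podocan, a collagen-binding SLRP) was the 1 member besides *Lum* whose female KO libraries all lay below the wild-type ones, beside 8.2% of all genes. It held 3.88, 3.03 and 3.45 CPM in female wild-type and 2.31, 2.68 and 2.61 CPM in female KO libraries, a change of -0.44 (SE 0.15) with an unadjusted p of 0.0106 and an adjusted p of 0.543 (edgeR). In male MEFs it held 3.91, 5.11 and 4.24 CPM in wild-type and 3.45, 3.44 and 4.20 CPM in KO libraries. Male KO replicate 3 reached into the wild-type range, and the change was -0.26 (SE 0.14). With single libraries left out, this male change ran from -0.36 to -0.14.

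Between female and male MEFs several members differed, in the opposite direction to *Lum*. Between wild-type cultures 2 of 8 members passed the limits, *Aspn* and *Prelp*, both lower in female MEFs, where 4.54% of all genes were called, 2.98% higher and 1.55% lower. Between KO cultures 4 of 8 passed, *Aspn*, *Prelp*, *Fmod* and *Ogn*, again all lower in female MEFs, where 3.89% were called, 2.31% higher and 1.58% lower. All female libraries lay below all male ones for 6 of 8 members in wild-type and for 6 of 8 in KO MEFs, beside 26.4% and 25.7% of all genes, and 51.9% and 50.2% of all genes did not overlap in one direction or the other. At an adjusted p under 0.05 without the fold limit, 5 of 8 members passed in wild-type and 6 of 8 in KO MEFs, all lower in female MEFs, beside 38.7% of all genes in each. The median log2 fold change of the 8 was -0.93 in wild-type and -0.92 in KO MEFs, beside -0.01 and -0.00 for all genes. The 9 fibroblast markers had medians of -0.58 and -0.57, with 2 of 9 higher in female wild-type and 1 of 9 in female KO MEFs, and 1 of 9 called, lower in female wild-type MEFs. *Lum* was higher in female than in male wild-type MEFs by 3.95 (SE 0.39) on the log2 scale, and by 1.01 (SE 0.37) between KO MEFs, where the groups overlapped.

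**Figure D3:**
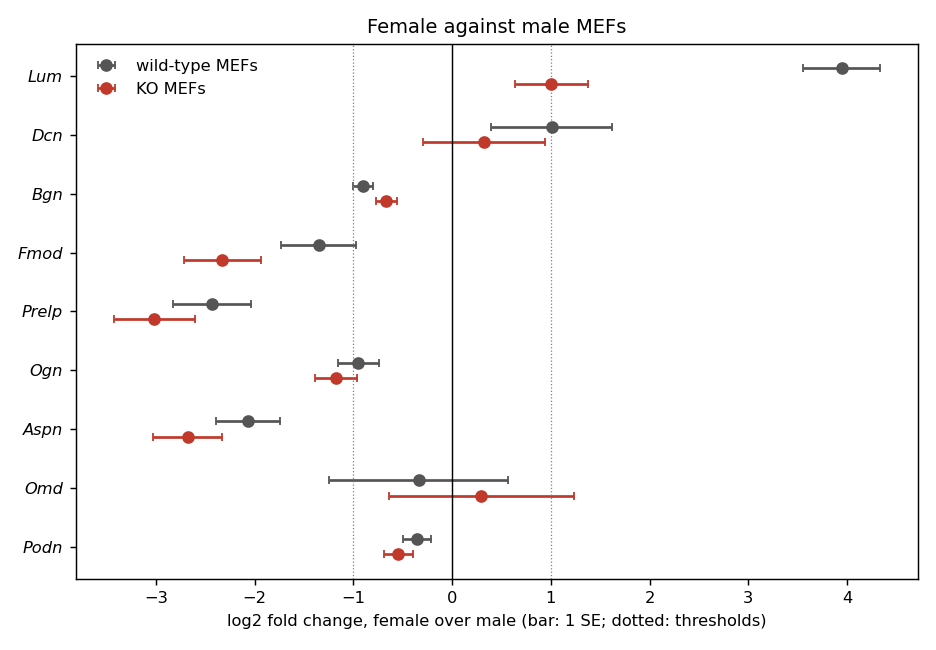
Log2 fold change of female over male MEFs for the 9 counted SLRP genes in wild-type (grey) and KO (red) cultures, with bars of 1 SE and dotted lines at the fold-change thresholds. *Lum* lies on the female side (3.95 and 1.01), and *Prelp*, *Aspn*, *Fmod*, *Ogn*, *Bgn* and *Podn* lie on the male side in both genotypes.

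For *Prelp* the female wild-type libraries reached 2.17 CPM at most and the male ones 5.64, 11.6 and 7.56 CPM. The 2 sets were well apart, with a log2 fold change of -2.43 (SE 0.39; adjusted p = 8.82e-04, edgeR). Between KO cultures the change was -3.02 (SE 0.41; adjusted p = 3.1e-04, edgeR). *Aspn* reached 9.66 CPM at most in the female wild-type libraries and 25.7 CPM at least in the male ones, a change of -2.07 (SE 0.33; adjusted p = 7.42e-04, edgeR), and in KO cultures it changed by -2.68 (SE 0.35; adjusted p = 2.26e-04, edgeR). Between KO cultures these 2 members had the widest gaps between the lines, and between wild-type cultures only *Lum* had a wider one.

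*Fmod* and *Ogn* crossed the limits in KO but not in wild-type MEFs, but the difference between the genotypes did not pass the test, with an adjusted p of 1 for both in edgeR's test of the sex difference in the KO effect. The change of *Fmod* was -1.35 (SE 0.38; adjusted p = 0.0165, edgeR) in wild-type and -2.33 (SE 0.39; adjusted p = 0.00102) in KO cultures. The change of *Ogn* was -0.95 (SE 0.21; adjusted p = 0.00505, edgeR) in wild-type, short of the fold limit, and -1.17 (SE 0.21; adjusted p = 0.00162) in KO cultures. Without male wild-type replicate 3, where *Ogn* stood at 35.9 CPM beside 60.2 and 69.8 CPM in the other male wild-type libraries, both genes passed in wild-type MEFs as well (-1.58 and -1.18), making 4 of 8 where 661 of 15637 genes were called. Without both male libraries numbered 3, *Dcn* also passed, as the 1 member higher in female MEFs (1.79, adjusted p = 0.00887, edgeR), making 5 of 8 where 784 of 15503 genes were called. With all libraries the change of *Dcn* was 1.01 (SE 0.61; adjusted p = 0.215, edgeR) in wild-type and 0.32 (SE 0.62) in KO MEFs, where it was 1.19 (SE 0.45; adjusted p = 0.0556, edgeR) without both male libraries numbered 3.

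*Bgn* was lower in female MEFs by less than the fold limit but with little spread. It held 1874, 1626 and 1495 CPM in female wild-type libraries and 3337, 3276 and 2722 CPM in the male ones. These did not overlap, and the change was -0.90 (SE 0.10; adjusted p = 1.18e-04, edgeR) in wild-type and -0.66 (SE 0.10; adjusted p = 6.93e-04) in KO cultures. The change of *Podn* was -0.36 (SE 0.14; adjusted p = 0.0652, edgeR) in wild-type and -0.54 (SE 0.14; adjusted p = 0.0121) in KO cultures. For *Omd* the differences of -0.34 and 0.30 were within 1 SE.

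Markers of other cell types differed between the lines along with these genes. The bone list (8 genes, all in the table) summed to 107 to 161 CPM in female and 420 to 596 CPM in male libraries. Most of that was *Spp1*, which encodes osteopontin, at a mean of 96.4 CPM for female and 397 CPM for male wild-type cultures. All 5 tested bone genes had negative fold changes, and 1 was called lower in wild-type and 2 in KO cultures, beside 1.55% and 1.58% of all genes, with medians of -1.804 and -1.94, while *Bglap* and *Bglap2* were at 0 or near it. The macrophage list (8 of 9 genes in the table, none at 0) summed to 33.0 to 105 CPM in female and 6.67 to 13.5 CPM in male libraries, with 7 of 8 genes called higher in female MEFs in each genotype, beside 2.98% of all genes in wild-type and 2.31% in KO cultures. Epithelial genes were called higher for 4 of 6 in wild-type and 1 of 6 in KO cultures. The part of bone-forming, macrophage or epithelial cells in the SLRP levels was not tested.

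Cartilage markers varied between the libraries of a group. Most of their sum was *Col2a1*, with group means of 220 to 305 CPM, whereas *Col9a1*, *Hapln1* and *Matn1*, picked out after their values were seen, had higher means in the female groups (4.43 and 5.28 CPM for *Col9a1*) than in the male ones (0.228 and 0.790 CPM), and *Sox9* and *Acan* had lower ones (6.79 and 7.53 CPM against 10.2 and 10.04 CPM for *Sox9*). None of the 7 tested genes of the list was called in any comparison. The 8 genes in the table summed to 398 CPM in female wild-type replicate 3 and 396 CPM in female KO replicate 1, the 2 female libraries with the highest *Omd*, and to 165 to 253 CPM in the other female libraries. In male MEFs they were lowest in the libraries numbered 3, at 76.6 CPM in wild-type and 177 CPM in KO, where *Fmod* and *Omd* were also lowest in their group and *Dcn* highest. *Epyc*, the cartilage SLRP epiphycan that lies 30.4 kb beyond *Kera* and was picked out after its values were seen, had its highest counts in female wild-type replicate 3 (75), male KO replicate 1 (24) and female KO replicate 1 (23). The part of cartilage cells in these levels was not tested.

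**Figure D4:**
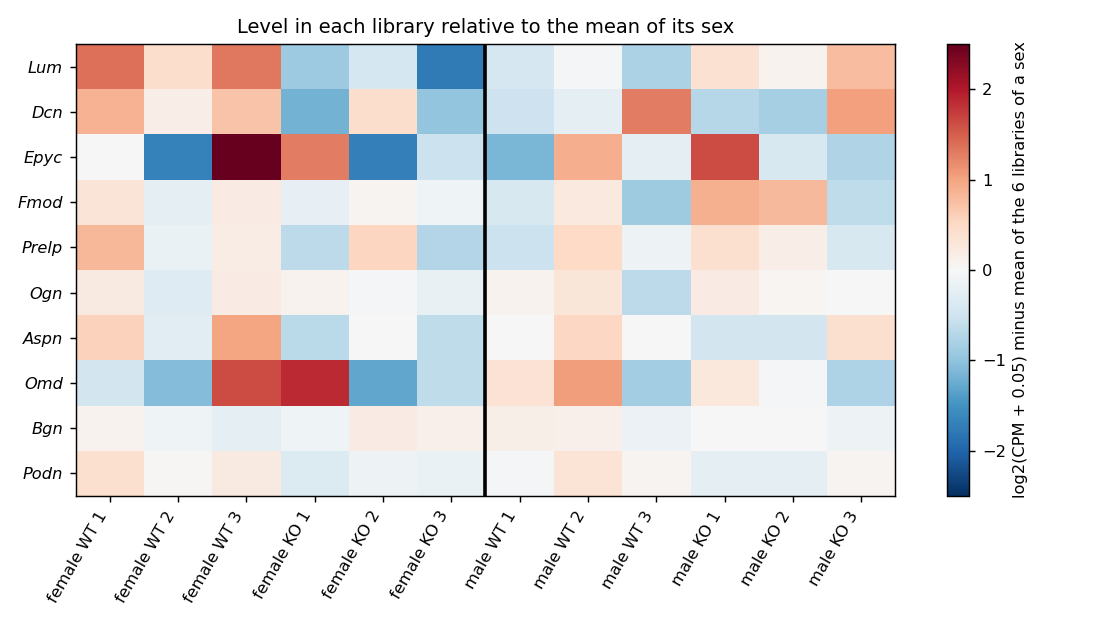
Level of 9 SLRP genes and of *Epyc* in each library relative to the mean of the 6 libraries of its sex, on the log2(CPM + 0.05) scale, with red above and blue below that mean. *Lum* is red in the 3 female wild-type and the 3 male KO libraries, among the female libraries *Omd* and *Epyc* are reddest in wild-type replicate 3 and KO replicate 1, and *Dcn* is red in both male libraries numbered 3.

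To see whether the relatives follow *Lum* from library to library, log2 CPM values were compared within a sex. Over the 6 male libraries, which had no part in choosing *Lum*, 5 of 8 members correlated positively with it and 0 of 8 passed the exact two-sided permutation test over 720 pairings. The highest Pearson's r was 0.60 for *Ogn* (exact permutation p = 0.224, Spearman's rho 0.14 with p = 0.803) and the lowest -0.19 for *Podn* (exact permutation p = 0.728, rho -0.37 with p = 0.497), and all 8 adjusted p were 1 for r and for rho. Left without the 2 libraries farthest from the median of *Lum*, which were those numbered 3, the r of *Ogn* was 0.32 and that of *Podn* -0.38. That of *Fmod* went from 0.37 (exact permutation p = 0.458, rho 0.43 with p = 0.419) to 0.95, and that of *Bgn* from -0.13 (exact permutation p = 0.761, rho -0.14 with p = 0.803) to -0.89. Leaving out those 2 libraries one at a time turned several signs. Without male wild-type replicate 3, r was -0.27 for *Ogn*, -0.05 for *Fmod*, 0.65 for *Dcn* and -0.96 for *Bgn*, and without male KO replicate 3 it was 0.80, 0.98, -0.82 and 0.35. With any 1 library left out, no r had an adjusted p under 0.05 in the exact permutation test. The lowest was 0.0667, for *Fmod* without male KO replicate 3 (unadjusted p = 0.0083). With 5 libraries that test can give no smaller p than this 0.0083, so a single member could not pass after adjustment over 8. These values therefore cannot decide whether *Fmod* follows *Lum*. The male KO and wild-type libraries also do not overlap in *Lum*, their nearest values being 0.694 and 0.629 CPM, so r includes that difference between the genotypes. For female MEFs no r is given, because those libraries chose *Lum* and their wild-type and KO groups lie well apart (2.57 CPM at most in KO and 4.75 CPM at least in wild type).

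Ranked over all 12 libraries after the mean of each sex was subtracted, *Aspn* had the highest r with *Lum* among the members, 0.69, although its r over the male libraries alone was 0.04. *Prelp* (0.59), *Podn* (0.59), *Dcn* (0.51) and *Ogn* (0.45) came next, *Fmod* reached 0.32 and *Omd* 0.10, and *Bgn* had a negative r of -0.35. These values describe 12 libraries of 4 groups, each value pair shares its library and its depth, and 6 of the libraries chose *Lum*, so the values are no evidence that a gene follows it. The 5 genes most like *Lum* on this scale were *Far2* (0.92), *Mkx* (0.89), *Tmed7* (0.88), *Tmx4* (0.88) and *D0H4S114* (0.86), none of them a SLRP. *Mkx*, the tendon homeobox gene Mohawk, was at 2.96 CPM in female wild-type and 2.40 CPM in female KO MEFs, a log2 fold change of -0.31, and at 4.03 and 4.43 CPM in the male groups. Both of its changes were closer to 0 than those of *Lum*.

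Neighbours within a cluster differed in their values. On chromosome 10, *Dcn* and *Lum* were both higher in female than in male wild-type MEFs in the fitted mean (1.01 and 3.95), although *Dcn* did not pass, and their female KO values were -1.0 for *Dcn*, which did not pass, and -2.07 for *Lum*, which was not tested, while *Kera* between *Lum* and *Epyc* had no counts. On chromosome 13, *Aspn* was lower in female wild-type MEFs (-2.07), *Ogn* had a change of -0.95 that was short of the fold limit, and *Omd*, which lies between them, was not distinguishable from no change (-0.34, SE 0.91). On chromosome 1, *Prelp* was lower in female wild-type MEFs (-2.43) and *Fmod* had a change of -1.35 with an adjusted p of 0.0165 in edgeR's test, short of a call, whereas *Optc* (opticin), 2.3 kb from *Prelp* and picked out for its position, had 4.26 ± 0.662 CPM in the female wild-type group and 3.41 ± 0.560 CPM in the male one (0.32, SE 0.14; adjusted p = 0.1, edgeR).

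**Figure D5:**
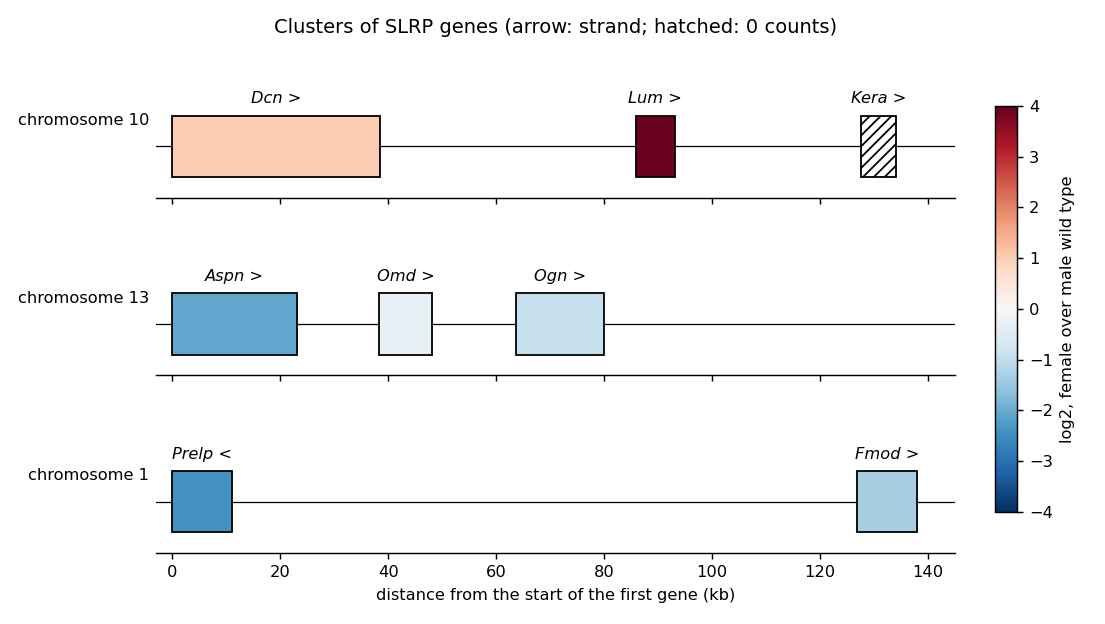
Maps of the 3 SLRP clusters drawn to scale by distance from the start of the first gene (kb), with arrows for strand and colours for the log2 fold change of female over male wild-type MEFs; hatching marks *Kera*, which had 0 counts. *Lum* (3.95) and *Dcn* (1.01) are red, and *Aspn* (-2.07), *Ogn* (-0.95), *Prelp* (-2.43) and *Fmod* (-1.35) are blue.

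Contacts between clustered members were read from Hi-C of C2C12, a mouse myoblast line, in which the corrected contact signal is given for pairs of 40 kb bins. These are other cells than the MEFs, and the 2 replicates were pooled, so there is no test. *Prelp* and *Fmod* had a signal of 27.8, which was 2.52 times the mean signal at the same distance on chromosome 1. The pair *Aspn* and *Ogn* had 1.53 times the mean of its distance (signal 37.7), *Dcn* and *Lum* 1.10 times (27.4) and *Lum* and *Kera* 0.683 times (23.2). With 1 more bin on each side of a gene the ratio of *Prelp* and *Fmod* was 1.63 and that of *Lum* and *Kera* 0.953. Each value rests on 1 or 2 bin pairs, so the order of the 4 pairs carries no error estimate.

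The genes that act with SLRPs gave no call between KO and wild type in either sex. Of the other family genes (*Epyc*, *Optc*, *Chadl*, *Podnl1*, *Tsku* and *Ecm2* among 9 listed), 0 of 6 tested were called in any comparison, with medians of -0.02 in female KO, 0.20 in male KO and 0.32 between female and male wild-type MEFs. Of 25 tested enzymes that build glycosaminoglycan chains, 2 were called higher and 2 lower in female wild-type MEFs, where 2.98% of all genes were called higher and 1.55% lower, with a median of -0.12. *Csgalnact1*, which starts chondroitin sulfate chains, was lower (-1.83, SE 0.23; adjusted p = 1.72e-04, edgeR), and so was *Chst1*, a keratan sulfate sulfotransferase (-1.38, SE 0.17; adjusted p = 1.74e-04, edgeR). *B3gnt7*, which extends keratan sulfate, was higher (1.82, SE 0.39; adjusted p = 0.004, edgeR), and so was the chondroitin sulfotransferase gene *Chst3* (1.28, SE 0.29; adjusted p = 0.00524, edgeR). In KO cultures *B3gnt7* was again higher (1.57) and *Csgalnact1* again lower (-1.33), and the other 23 were not called, where 2.31% of all genes were called higher and 1.58% lower.

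Of 21 other proteoglycans tested, 3 were called higher in female wild-type MEFs, *Srgn* of blood cell granules (2.94), *Spock3* (1.55) and the glypican *Gpc3* (1.13), and 1 was called lower, *Cspg4* (NG2, -1.79), beside the same shares of all genes as for the enzymes (4.54% called in all). In KO cultures *Srgn* (1.97) and *Spock3* (1.07) were higher and *Cspg4* was lower (-1.24), beside 3.89% of all genes called. Of 14 collagens of fibrils, 1 was called in each genotype, *Col6a3* of the beaded filaments, lower in female MEFs (-1.69 in wild-type and -1.50 in KO cultures), and the medians of the list were -0.04 and -0.25. Of 12 growth factors, receptors and a protease that bind or cut SLRPs, 0 were called, with medians of 0.01 and -0.03. The medians of these lists in the female KO were -0.00 for the enzymes, -0.12 for the other proteoglycans, -0.20 for the collagens and -0.10 for the binding partners, beside -0.00 for all genes.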

How the data were processed

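RNA-seq of 12 MEF libraries and Hi-C of C2C12 cells were used; the ChIP-seq samples were not analysed here. RNA-seq reads were filtered and mapped by the authors with Bowtie2; the authors quantified genes with RSEM 1.2.29 and deposited expected counts per gene for the build mm9, without scaling, as the methods and the submitters' processing notes give. For Hi-C, the authors pooled both replicates and deposited an iteratively corrected contact signal per pair of 40 kb bins from HiC-Pro 2.7.8. Whether counting used strand is not given in the sources used here, so a gene and an antisense transcript over it cannot be told apart.

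Rounded expected counts went into the quasi-likelihood test of edgeR 4.0.16 in R 4.3.3, after filterByExpr and TMM scaling, and p-values were adjusted by Benjamini and Hochberg's method over 15387 genes. The fit held all 12 libraries with 1 mean per sex and genotype (8 residual degrees of freedom, common biological coefficient of variation 0.114). A call needed an adjusted p under 0.01 with an absolute log2 fold change over 1, the limits of the study's methods. DESeq2 1.42.0 was an alternative, and so were 2 other settings of the filter on low counts (none, and at least 10 counts in every library), library size or DESeq2's size factors alone, a replicate block, the 6 libraries compared alone, an adjusted p under 0.05 without a fold limit, and each library left out in turn. Leaving out both male libraries numbered 3 was added after the data were seen. Correlations used log2 CPM (prior count 2) and exact permutation in SciPy 1.17.1. Approximate TPM used merged exon lengths of the mm9 annotation. Promoter windows came from RefSeq (GRCm38.p6). The edgeR and correlation steps were tested on simulated data.

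The members, the gene lists (other SLRPs, glycosaminoglycan enzymes, other proteoglycans, collagens, binding partners, and markers of fibroblasts, tendon, cartilage, bone, skeletal muscle, macrophages, endothelium, epithelium and neural cells) and the tests were chosen with earlier results of these data known. The genes named were the members, *Firre*, up to 3 called genes per list and direction, and the 5 genes most like *Lum*, apart from those said to be picked otherwise. Depth, 42986516 to 65454660 counts per library, sets the precision of low genes, and limits from a count of 0 cover counting error only.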

Additional observations from a re-analysis of the deposited data

Results flagged for a closer look

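The libraries of *Lum* were ordered in opposite ways in the sexes. Every female KO library lay below every female wild-type library (0.995 to 2.57 against 4.75 to 9.14 CPM), and every male KO library lay above every male wild-type library (0.694 to 1.15 against 0.356 to 0.629 CPM). On the log2 scale the female effect minus the male effect was -2.94. The male change alone, 0.87 (SE 0.40), did not pass edgeR's quasi-likelihood test (adjusted p = 1) and was 0.49 (SE 0.49) without both male libraries numbered 3. The difference between the sexes was not tested, because *Lum* was taken up for its values in the female libraries.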

How the results depend on the processing

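The 36 log2 fold changes of the 9 counted members in 4 contrasts were recomputed under each alternative, which gave 716 values; 695 kept their direction and their side of the limits, 7 passed the limits that had not before (2 without male wild-type replicate 3, 1 without male KO replicate 3, 3 without both and 1 with DESeq2, all between wild-type MEFs of both sexes), and 14 changed sign, none of them a called value. *Lum* was judged by its value alone in contrasts with female libraries, where it is not tested. The count of 0 of 8 members called between KO and wild type, in each sex, on average and in the difference between the sexes, was 0 under every alternative run, of 7 members instead of 8 with at least 10 counts in every library. Between female and male wild-type MEFs the count of 2 became 5 at an adjusted p under 0.05 without a fold limit, 4 without male wild-type replicate 3 (2 to 4 over the single libraries left out) and 5 without both male libraries numbered 3, and it was 3 with DESeq2. Over all genes the calls in that contrast were 698 of 15387, and under these settings 5953 of 15387, 661 of 15637, 784 of 15503 and, with DESeq2, 897 of 17310. With single libraries left out, calls over all genes ranged from 432 (without male wild-type replicate 1) to 763 between wild-type MEFs and from 329 (without male KO replicate 1; 342 without male KO replicate 2 and 376 without female KO replicate 1) to 621, against 599, between KO MEFs. DESeq2 called 4 genes in all in the female and 2 in the male KO, against 1 each in edgeR's test, 3 on average over the sexes against 1, and 1 against 0 in the difference between the sexes. With only the 6 libraries compared, edgeR called 0 genes in the female and in the male KO. At least 10 counts in every library also left 0, since that filter removes *Firre*, which is at 0 in the KO.

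Sign changes were found for *Omd*, *Dcn*, *Ogn* and *Prelp*, and their cause was not tested. *Omd* in the female KO was -0.24 and -0.35 without female wild-type replicate 1 or 2 and -1.74 without female KO replicate 1 (range -1.74 to 1.58), in the male KO 0.0090 without male wild-type replicate 2 (-0.93 to 0.0090), between wild-type MEFs of both sexes 0.21 and 0.10 without male or female wild-type replicate 2 (-1.83 to 0.21), and between KO MEFs -1.54 without female KO replicate 1 (-1.54 to 0.79). *Dcn* in the male KO was 0.46 without male wild-type replicate 3 (-1.18 to 0.46), and between KO MEFs of both sexes -0.38 without female KO replicate 2 (-0.38 to 1.18). In the male KO, *Ogn* was -0.10 without male wild-type replicate 3 (-0.10 to 0.33) and -0.064 without both male libraries numbered 3, and *Prelp* was -0.13 and -0.09 without male wild-type or KO replicate 1 (-0.13 to 0.41).

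Same-numbered wild-type and KO libraries had deviations that correlated at -0.16, -0.12 and -0.15 in female MEFs, so the numbers did not pair these. In male MEFs the same-numbered values were 0.097, 0.22 and 0.33. Male wild-type replicate 3 correlated at -0.15 and -0.29 with KO replicates 1 and 2. Male KO replicate 3 correlated at -0.17 and -0.23 with wild-type replicates 1 and 2. Male wild-type replicate 1 correlated best with KO replicate 2 (0.14). The labels do not say whether a number marks a shared preparation, and this was not tested. With the replicate block, *Omd* in the female KO was -0.20, the member counts were 0 in each KO contrast, 2 between wild-type and 4 between KO MEFs of both sexes, and 0 genes in all were called in the female and in the male KO.

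For Hi-C, the contact ratios with absent bin pairs left out, with an expected signal from all autosomes and with 1 more bin on each side were 1.09, 1.11 and 1.17 for *Dcn* and *Lum*, 0.681, 0.695 and 0.953 for *Lum* and *Kera*, and 2.47, 2.45 and 1.63 for *Prelp* and *Fmod*. For *Aspn* and *Ogn* the first and the last were 1.51 and 1.60. Fits of only 6 libraries do not exist for the contrasts that need both sexes and genotypes. A count under 100 in a library limits what it can show. This holds for *Lum* in all male and some female libraries and for *Omd* in all. It also holds for *Prelp* in all female libraries (32 to 93 counts).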

Other observations

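Markers of cell types other than those set beside the SLRP values were present in all groups. The skeletal muscle list (9 genes) summed to 77.9 to 145.1 CPM in male and 84.7 to 140 CPM in female libraries; 0 of its 6 tested genes were called between KO and wild type in either sex, and 1 was called higher in female wild-type and 3 in female KO than in male MEFs of the same genotype, with medians of 2.61 and 3.23. The endothelial list (6 genes) summed to 17.1 to 23.3 CPM in male and 25.0 to 35.4 CPM in female libraries, with 0 of 5 tested genes called in any comparison. The neural list (6 of 7 genes in the table) summed to 469 to 641 CPM in male and 606 to 819 CPM in female libraries. Most of that was *Nes*, with group means of 459 to 655 CPM. In each genotype 2 of 5 tested genes were called higher in female MEFs, beside 2.98% of all genes in wild-type and 2.31% in KO cultures. In the tendon list 1 of 4 genes was called, higher in female wild-type than in male wild-type MEFs, beside 2.98% of all genes.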
